A study of Homo sapiens with 9 samples.

Results

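The genes described here are 10 core members of the BCL2 family, the regulators of the mitochondrial route to apoptosis. They were selected by gene symbol from the 61487 gene identifiers counted in each library. The 10 are the pro-survival genes BCL2, BCL2L1 and MCL1, the effectors BAX and BAK1, and the BH3-only genes BBC3, PMAIP1, BCL2L11, BID and BAD. Each of the 10 symbols matched 1 identifier, and all 10 passed the filter on low counts that left 17806 genes for testing.

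Their transcripts were measured by RNA-seq of total RNA from SH-SY5Y, an established human neuroblastoma line with properties of immature sympathetic neurons. The cells received vehicle (0 µM), 10 µM or 20 µM citrinin, a nephrotoxic mould toxin found in stored grain and red yeast rice. Exposure lasted 72 h in every group, vehicle included, in MEM/F12 medium with 15% FBS. Each of the 3 groups held 3 libraries with replicate numbers 1 to 3, all from this 1 tumour line. The labels do not say whether these were separate cultures, so the spread between these libraries may be technical. In fits without a block, p-values measure dose against that spread. In fits that block on the replicate number, they measure it against what remains after differences between replicate numbers are taken out.

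Cells commit to mitochondrial apoptosis when BAX and BAK1 proteins open the outer mitochondrial membrane and release cytochrome c, which starts the caspase cascade. BCL2, BCL-XL (the main product of BCL2L1) and MCL1 hold the effectors and their activators in check by binding the BH3 helix of the other family members in a surface groove. BH3-only proteins occupy that groove or engage the effectors directly, and in neurons and neuroblastoma cells the balance between the classes sets how readily stress leads to death. Much of this control acts on protein stability, cleavage, phosphorylation and location, which RNA levels do not record.

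The BH3 motif is the sequence that carries these contacts, and its coding bases are shown because they are the feature that the 10 genes share. Each run holds 33 coding bases, 5′ to 3′ on the gene's own strand, read from the GENCODE 29 transcripts on GRCh38. Capitals mark a leucine codon, then the adjoining codons of a small residue (glycine, alanine or serine) and of aspartate.
BCL2: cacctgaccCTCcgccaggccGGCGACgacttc
BCL2L1: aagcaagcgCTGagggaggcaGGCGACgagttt
MCL1: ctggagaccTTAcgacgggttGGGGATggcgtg
BAX: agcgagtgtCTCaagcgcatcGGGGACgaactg
BAK1: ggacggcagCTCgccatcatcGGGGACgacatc
BBC3: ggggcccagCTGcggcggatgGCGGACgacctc
PMAIP1: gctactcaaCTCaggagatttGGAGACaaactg
BCL2L11: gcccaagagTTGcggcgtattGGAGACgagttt
BID: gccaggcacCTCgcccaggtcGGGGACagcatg
BAD: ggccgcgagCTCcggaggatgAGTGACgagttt

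Among the pro-survival genes the run lies at chr18:63318355-63318387 (minus strand) in exon 2 of BCL2, at chr20:31721928-31721960 (minus) in exon 2 of BCL2L1 and at chr1:150578871-150578903 (minus) in exon 1 of MCL1. It lies at chr19:48955778-48955810 (plus) in exon 3 of BAX and at chr6:33575393-33575425 (minus) in exon 4 of BAK1. For the BH3-only genes the places are chr19:47226585-47226617 (minus) in exon 3 of BBC3, chr18:59902664-59902696 (plus) in exon 2 of PMAIP1 and chr2:111150094-111150126 (plus) in exon 4 of BCL2L11. BID holds it at chr22:17739421-17739453 (minus) in exon 4 and BAD at chr11:64271628-64271660 (minus) in exon 3. The search asked for a leucine codon, any 3 codons, a small-residue codon and an aspartate codon in frame, which matched once in 9 members. BID matched 2 times, and its glycine match is shown. The pattern by itself is common, since 6592 of 18691 protein-coding genes (35.3%) hold it somewhere in the principal coding sequence, so it marks the place in these known genes and identifies no family member.

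At the level of bases the runs are diverse. BCL2L11 and BAD shared 23 of 33 bases (69.7%), the highest of the 45 pairs, and both are BH3-only. BCL2 and its close relative BCL2L1 shared 20 of 33 (60.6%). MCL1 and PMAIP1, whose proteins bind each other, shared 11 of 33 (33.3%), as few as any of the 45 pairs, and the median pair shared 16 of 33 (48.5%). At 4 of the 33 positions all 10 members held the same base.

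Sequencing depth was similar across the groups. Libraries held 15678443 to 19604367 gene reads, TMM scaling factors were 0.989 to 1.013, and mitochondrially encoded genes took 10.3% to 12.4% of gene reads. All 14 sympathetic neuroblast markers and all 10 mesenchymal markers were expressed, while the 5 immune and endothelial markers stayed below 1 CPM (gene counts scaled to the depth of the library) in every library and summed to at most 1.62 CPM. Schwann and glial markers summed to 6.55 to 10.00 CPM with SOX10 and GFAP below 1 CPM in every library, and epithelial markers to 32.4 to 48.7 CPM with CDH1 below 1 CPM. Libraries with the same replicate number deviated from their group means together, so each dose comparison below comes from an edgeR fit that blocks on the replicate number. "Rose" and "fell" are used of an adjusted p below 0.05 in that fit (Benjamini-Hochberg over 17806 genes). In the planned edgeR fit without the block no gene passed in any dose comparison, with 387, 115 and 210 genes at an unadjusted p below 0.05 at 20 µM against vehicle, 10 µM against vehicle and 20 µM against 10 µM.

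BCL2, the founding pro-survival gene, fell at 20 µM and was the only member that passed. Its level was 179.5, 152 and 141 CPM in vehicle replicates 1, 2 and 3, then 167, 135 and 136 CPM at 10 µM, and 146, 117 and 113 CPM at 20 µM. In each replicate number the order ran downwards from vehicle to 20 µM, but replicate 1 was the highest at every dose, so that its 20 µM library lay above vehicle replicate 3 and the groups overlapped. The group means were 157 ± 19.9 CPM in vehicle, 146 ± 18.2 CPM at 10 µM and 125 ± 18.05 CPM at 20 µM (SD, n = 3 each).

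At 20 µM against vehicle BCL2 fell by 0.33 ± 0.05 on the log2 scale (SE; 95% interval -0.43 to -0.23), which is 0.795 times the vehicle level. The adjusted p in edgeR with the block was 8.39e-05, and the level was lower in 3 of 3 same-numbered pairs. In that comparison 1.36% of all tested genes were called lower and 2.21% in either direction. The planned fit without the block gave -0.33 ± 0.13 with an adjusted p of 1 (unadjusted 0.0339). Among 18 fits with the block the call was kept in 17, with values from -0.35 to -0.31, and was lost without all 3 libraries of replicate 3 (adjusted p = 0.0721). In bulk RNA, fewer BCL2-expressing cells and less BCL2 RNA per cell cannot be told apart. Beside this fall, the summed level of the 14 sympathetic neuroblast markers ran from 3438 to 4068 CPM in vehicle and from 2883 to 3718 CPM at 20 µM, and that of the 10 mesenchymal markers from 3558 to 5247 CPM in vehicle and from 3910 to 5613 CPM at 20 µM. The sympathetic sum was lower at 20 µM in 3 of 3 same-numbered pairs, with log2 differences of -0.13, -0.22 and -0.25, and the mesenchymal sum was higher in 2 of 3. Most of the mesenchymal sum was FN1, at 3450.5, 2597.6 and 3854.9 CPM in vehicle and 3178.1, 2913.1 and 4101 CPM at 20 µM. The mesenchymal list was split. VIM, CD44 and YAP1 were higher at 20 µM in 3 of 3 pairs, while TWIST1, PRRX1 and COL1A2 were lower in 3 of 3. The other mesenchymal markers were mixed. The part of these marker lists in the BCL2 result was not tested.

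Between the doses, BCL2 was lower at 20 µM than at 10 µM by 0.22 ± 0.05 on the log2 scale (interval -0.32 to -0.13, adjusted p = 0.0242 in edgeR with the block). There 0.264% of tested genes were called lower and 0.444% in either direction, and again BCL2 alone of the 10 passed. This call was kept in 12 of 18 blocked fits and lost without vehicle replicate 1 (adjusted p = 0.0706), vehicle replicate 3 (0.0672), 10 µM replicate 3 (0.523), 20 µM replicate 2 (0.119), 20 µM replicate 3 (0.258) or all of replicate 3 (0.998). The planned edgeR fit without the block gave BCL2 -0.22 ± 0.13 at 20 µM against 10 µM (interval -0.52 to 0.08, unadjusted p = 0.131). At 10 µM against vehicle no member passed, where 0.0337% of all genes did. BCL2 stood at -0.11 ± 0.05 there (interval -0.21 to -0.01, unadjusted p = 0.0286, adjusted p = 0.9997 in edgeR with the block), and it was lower in 3 of 3 pairs. BCL2 (ENSG00000171791) spans 63123346 to 63320128 on the minus strand of chromosome 18 (GRCh38), with 11765 nucleotides of annotated exon.

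The other pro-survival genes did not pass. MCL1, a short-lived protein whose gene was the most highly expressed member, was at 260.4, 304 and 307 CPM in vehicle, against 264, 320.3 and 310.5 CPM at 20 µM. Its 3 lowest libraries were those of replicate 1, one at each dose. The log2 fold change at 20 µM against vehicle was 0.04 ± 0.04 (interval -0.05 to 0.13, adjusted p = 0.782 in edgeR with the block). BCL2L1, which encodes BCL-XL, was the steadiest member in the joint count described below, at 25.4 to 30.8 CPM over the 9 libraries. Its log2 fold change was 0.06 ± 0.08 (interval -0.11 to 0.22, adjusted p = 0.829). For these 2 genes the intervals exclude a fall as large as the 0.33 estimated for BCL2, though the difference between members was not itself tested. MCL1 (ENSG00000143384) spans 150574551 to 150579738 on chromosome 1 and BCL2L1 (ENSG00000171552) 31664452 to 31723989 on chromosome 20, both on the minus strand.

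**Figure D1:**
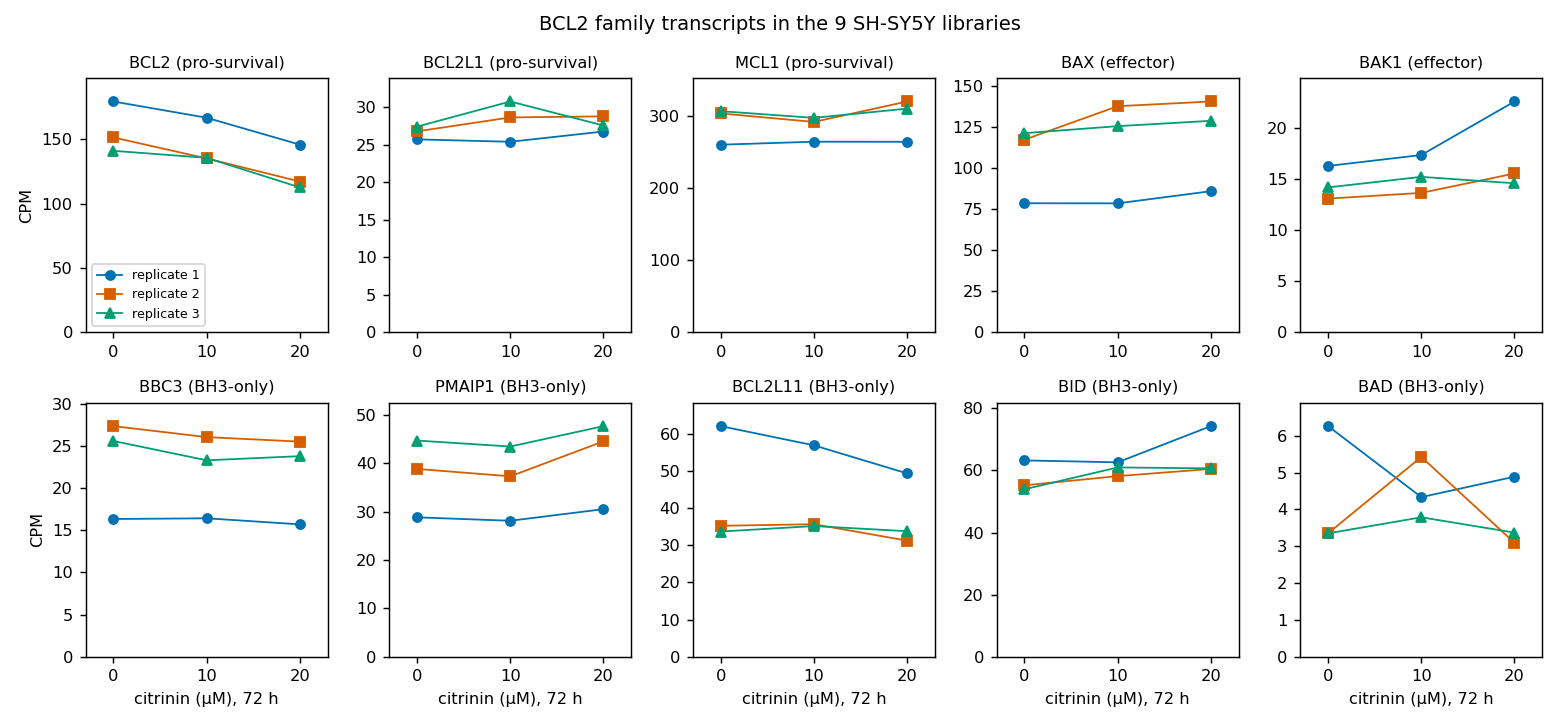
Level of each of the 10 genes (CPM, vertical axis from 0) against citrinin dose (µM), with the libraries of 1 replicate number joined by a line. BCL2 runs downwards in each replicate number, from 179.5 to 146 CPM in replicate 1, and replicate 1 stands apart from replicates 2 and 3 in several panels, as for BAX, BBC3 and BCL2L11.

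The effector genes were higher at 20 µM in 3 of 3 pairs without passing. BAX, which moves from the cytosol to mitochondria to form pores, was at 78.7, 117 and 121 CPM in vehicle, at 78.6, 138 and 126 CPM at 10 µM, and at 86.0, 141 and 129 CPM at 20 µM. The gap between replicate 1 and the other libraries exceeded any gap between doses. BAX had a log2 fold change of 0.16 ± 0.05 at 20 µM against vehicle (interval 0.05 to 0.27, unadjusted p = 0.00573, adjusted p = 0.131 in edgeR with the block).

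BAK1, which resides in the outer mitochondrial membrane, was at 16.3, 13.1 and 14.2 CPM in vehicle, against 22.6, 15.5 and 14.6 CPM at 20 µM. Replicate 1 at 20 µM was its highest library by a wide margin, and the groups overlapped. The log2 fold change was 0.26 ± 0.10 (interval 0.05 to 0.48, adjusted p = 0.248 in edgeR with the block). Without 20 µM replicate 1 it was 0.145 with the block and 0.052 without it. BAX (ENSG00000087088) spans 48954815 to 48961798 on the plus strand of chromosome 19, and BAK1 (ENSG00000030110) 33572547 to 33580293 on the minus strand of chromosome 6.

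The number of BAX reads per BCL2 read within a library is a common summary of the balance between an effector and a pro-survival gene. It was 0.438, 0.775 and 0.861 in vehicle replicates 1 to 3, then 0.471, 1.02 and 0.927 at 10 µM, and 0.589, 1.201 and 1.15 at 20 µM. Within each replicate number the 20 µM library had the highest ratio, while replicate 1 was lower than the other numbers throughout. The mean log2 difference between same-numbered libraries was 0.49 at 20 µM against vehicle (SD 0.12 over 3 pairs, a 1.405-fold ratio), with pairs at 0.43, 0.63 and 0.41. It was 0.20 (SD 0.17) at 10 µM against vehicle, with pairs at 0.10, 0.40 and 0.11 and a mean of 0.106 without replicate 2, and 0.29 (SD 0.05) at 20 µM against 10 µM, higher in 3 of 3 pairs each time. These are descriptions with no test, because the genes were paired with earlier results known, and the comparisons share libraries. BCL2 supplied -0.33 and BAX 0.16 of the fitted change at 20 µM, so the larger component came from BCL2. Because the genes differ in length, a ratio of 1 read per read does not mean equal transcript numbers.

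**Figure D2:**
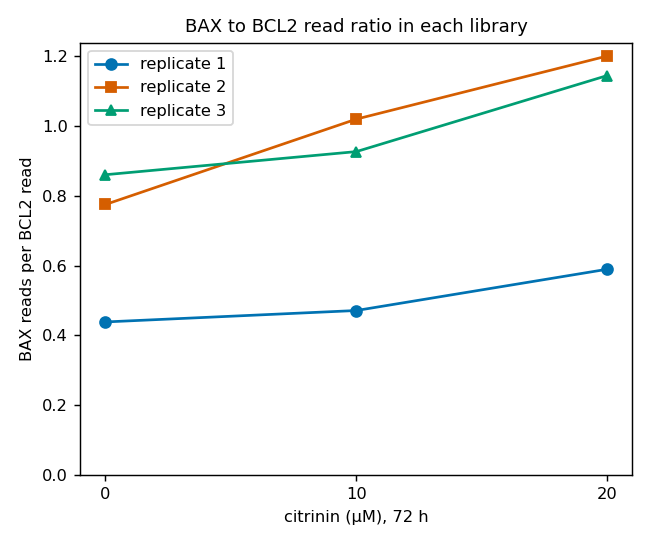
BAX reads divided by BCL2 reads in each library (vertical axis from 0) against citrinin dose (µM), with libraries of 1 replicate number joined. The ratio is highest at 20 µM in every replicate number, 0.589, 1.201 and 1.15, while replicate 1 lies below the other 2 numbers at each dose.

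No BH3-only gene passed in any of the 3 dose comparisons. BID links death receptors to mitochondria once caspase-8 has cut it, and it was at 63.2, 55.2 and 53.9 CPM in vehicle, against 74.3, 60.5 and 60.7 CPM at 20 µM. It was higher in 3 of 3 pairs, with the highest vehicle library above 2 of the 20 µM libraries. Its log2 fold change was 0.18 ± 0.06 (interval 0.05 to 0.30, unadjusted p = 0.00729, adjusted p = 0.150 in edgeR with the block).

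BCL2L11 encodes BIM, an activator that binds all pro-survival proteins and that neurons induce when deprived of growth factors. It was at 62.0, 35.2 and 33.7 CPM in vehicle, at 56.8, 35.6 and 35.1 CPM at 10 µM, and at 49.3, 31.2 and 33.8 CPM at 20 µM. The dose difference lay mainly in replicates 1 and 2, since replicate 3 differed by 0.1 CPM between vehicle and 20 µM. The log2 fold change was -0.18 ± 0.07 at 20 µM against vehicle (interval -0.32 to -0.03, adjusted p = 0.260), with 1 of 3 pairs higher.

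BBC3 and PMAIP1 encode PUMA and NOXA, BH3-only proteins that cells make on DNA damage and other stress. BBC3 was at 16.3, 27.3 and 25.6 CPM in vehicle against 15.7, 25.5 and 23.8 CPM at 20 µM. Its log2 fold change was -0.09 ± 0.08 (interval -0.26 to 0.08, adjusted p = 0.718). PMAIP1 was at 28.8, 38.9 and 44.7 CPM in vehicle, against 30.5, 44.6 and 47.7 CPM at 20 µM, with 0.13 ± 0.07 (interval -0.01 to 0.27, adjusted p = 0.446). PMAIP1 was higher in 3 of 3 pairs and BBC3 in 0 of 3. Between 20 µM and 10 µM PMAIP1 stood at 0.17 ± 0.07 (unadjusted p = 0.0190, adjusted p = 0.415 in edgeR with the block). The interval for BBC3 at 20 µM against vehicle reached 0.48 in the planned fit without the block.

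BAD, a sensitizer that survival kinases hold inactive by phosphorylation, had the fewest reads, 54 to 107 per library. It was at 6.26, 3.35 and 3.35 CPM in vehicle, against 4.89, 3.09 and 3.37 CPM at 20 µM, with no steady order of the doses across the replicate numbers. The log2 fold change was -0.18 ± 0.21 (interval -0.61 to 0.26, adjusted p = 0.791), the widest interval of the 10. On GRCh38, BBC3 (ENSG00000105327) spans 47220822 to 47232766 on chromosome 19 (minus), PMAIP1 (ENSG00000141682) 59899948 to 59904306 on chromosome 18 (plus) and BCL2L11 (ENSG00000153094) 111119378 to 111168447 on chromosome 2 (plus). BID (ENSG00000015475) spans 17734138 to 17774770 on chromosome 22 (minus) and BAD (ENSG00000002330) 64269830 to 64284704 on chromosome 11 (minus).

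Across the family, 1 of 10 members fell and none rose at 20 µM against vehicle. At an unadjusted p below 0.05 the blocked fit held 5 members there (BCL2, BAX, BAK1, BCL2L11 and BID), where 13.1% of all tested genes reached that level. It held 1 member at 10 µM against vehicle (3.59% of all genes) and 3 at 20 µM against 10 µM (8.81%), namely BCL2, PMAIP1 and BCL2L11. The median log2 fold change of the members was 0.05, 0.03 and 0.02 in these 3 comparisons, and 0.00 over all tested genes in each. The median absolute log2 fold change was 0.17, 0.08 and 0.13 for the members against 0.10, 0.07 and 0.09 for all genes. The same direction in 3 of 3 same-numbered pairs was seen for 8, 3 and 4 members, and for 35.3%, 25.6% and 27.4% of all genes. No member had groups without overlap at 20 µM against vehicle, where 6.76% of all genes did, or at 20 µM against 10 µM, where 4.87% did. For 10 members, none is close to these shares.

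**Figure D3:**
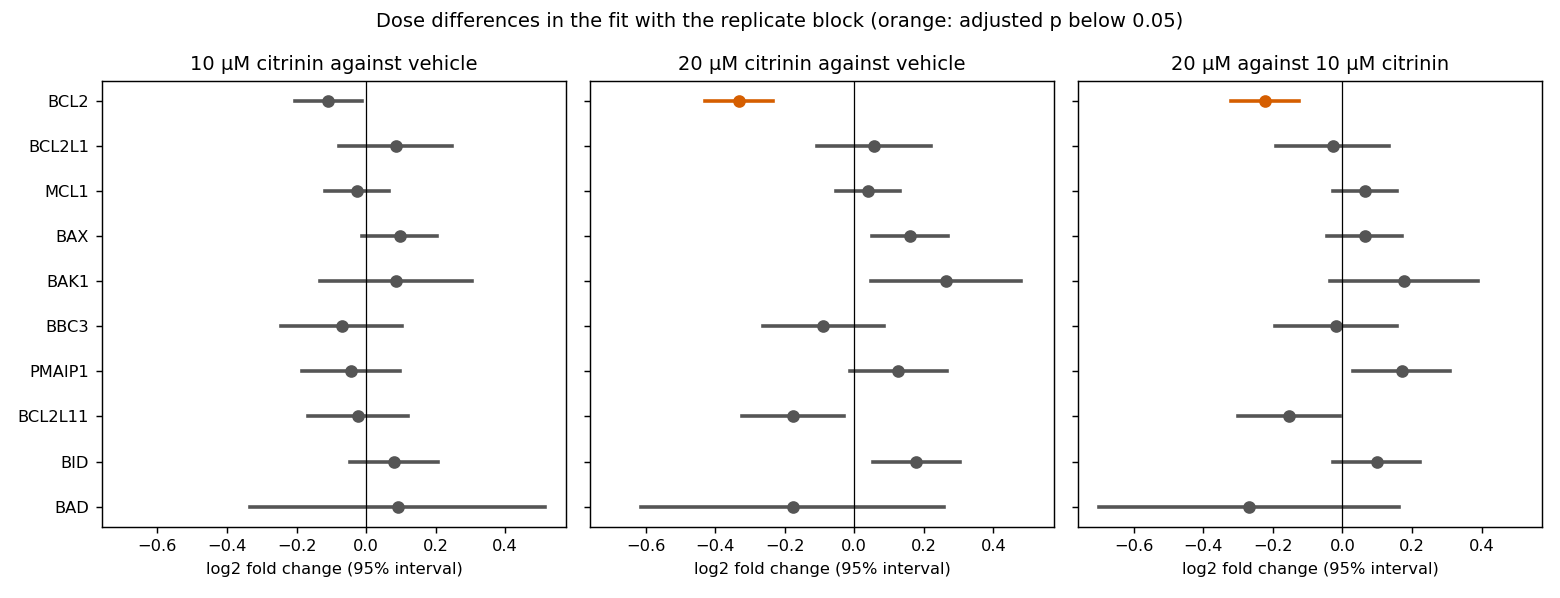
Log2 fold change of each gene with its 95% interval from edgeR with the replicate block, in 3 panels for 10 µM against vehicle, 20 µM against vehicle and 20 µM against 10 µM. BCL2 is the only gene drawn in orange (adjusted p below 0.05), at -0.33 in the middle panel and -0.22 in the right panel, and BAD has the widest intervals.

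Most members differed more between replicate numbers than between doses. A test of the replicate number in the joint count, adjusted for dose, called 8 of 10 members, against 43.3% of all tested genes. It left out BCL2L1 (adjusted p = 0.298 in edgeR) and BAD (0.0677). On the summed strand columns described below, BCL2L1 was at 41.1 to 42.9 CPM in replicate 1 and 47.7 to 52.2 CPM in the other libraries. BAD was at 33.9 to 37.3 CPM in replicate 1 and 28.5 to 33.3 CPM in the others. The replicate number was not tested on those columns, which include reads shared with other genes. BAX, BBC3, PMAIP1 and MCL1 were low in replicate 1. BAX averaged 81.1 ± 4.27 CPM in replicate 1 against 132 ± 12.7 in replicate 2 and 125 ± 3.78 in replicate 3 (SD over the 3 doses; adjusted p = 3.69e-11). BBC3 averaged 16.1, 26.3 and 24.2 CPM in replicates 1, 2 and 3 (adjusted p = 3.93e-07), and PMAIP1 29.2, 40.2 and 45.3 CPM (7.89e-08). For these 3 genes every replicate 1 library lay below every other library.

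Other members were high in replicate 1. BCL2L11 averaged 56.0 CPM there against 34.0 and 34.2 CPM in replicates 2 and 3 (edgeR adjusted p = 9.04e-10), a log2 difference of 0.72 ± 0.07 from replicate 2, which exceeds its dose difference in size. BCL2 averaged 164, 135 and 129.8 CPM (adjusted p = 1.71e-06), BAK1 18.7, 14.1 and 14.6 CPM (0.00403) and BID 66.7, 58.0 and 58.5 CPM (0.0129). MCL1, named above among the members low in replicate 1, averaged 263, 305 and 305 CPM (edgeR adjusted p = 0.000261).

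Of the variance of log2 CPM over the 9 libraries, the replicate number took 97.9% for BBC3 and the dose 1.44%. For BCL2 these shares were 53.5% and 45.5%, the highest dose share among the members. Noise between libraries was not subtracted from the shares. The labels do not say what a replicate number stands for, and its groups also differed in other measures. Mitochondrial genes took 11.9% to 12.4% of gene reads in replicate 1 and 10.3% to 11.8% in replicates 2 and 3. The mesenchymal markers summed to 3494 to 3910 CPM in replicate 2, against 4840 to 5061 in replicate 1 and 5224 to 5613 in replicate 3. The sympathetic markers summed to 3718 to 4068, 3460 to 4039 and 2883 to 3438 CPM in replicates 1, 2 and 3. Their part in the replicate differences was not tested.

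**Figure D4:**
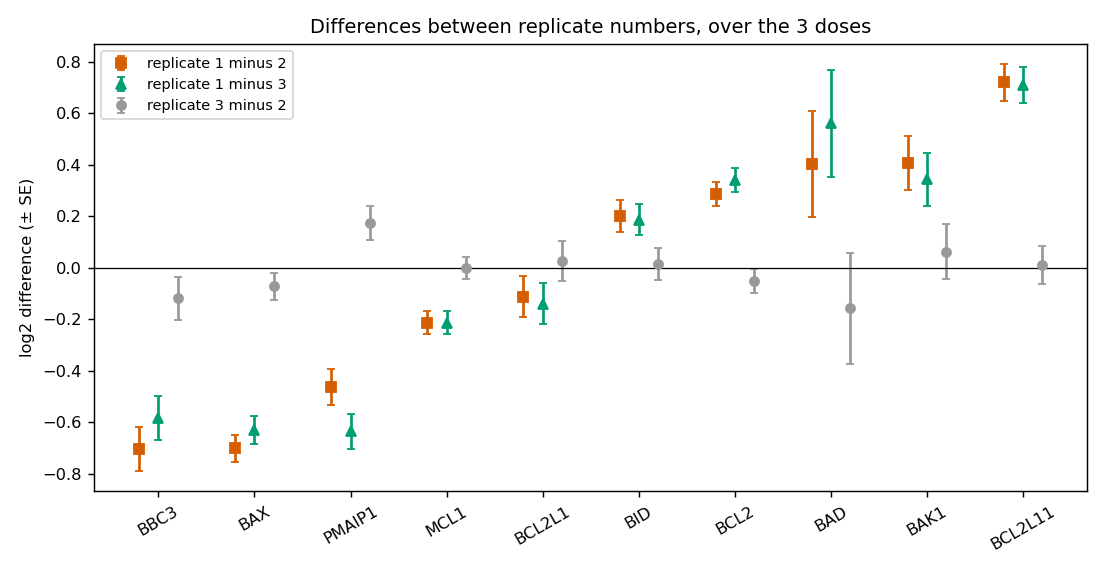
Log2 difference (± SE, edgeR with dose in the model) between replicate numbers for each gene, ordered by the difference between replicates 1 and 2. BBC3 and BAX lie at -0.70 and BCL2L11 at 0.72 for replicate 1 minus 2, while replicate 3 minus 2 (grey) stays within 0.18 of 0 for all 10 genes.

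Set side by side per length, the members covered a wide range of levels in vehicle. MCL1 was at 66.4 ± 5.95 CPM per kilobase of annotated exon (SD, n = 3), and BAX at 40.9 ± 9.14, and the ranges of these 2 did not overlap each other or those below. PMAIP1 (16.8 ± 3.59), BCL2 (13.4 ± 1.69) and BID (12.9 ± 1.13) followed, and neighbours among these 3 overlapped. A lower tier held BCL2L1 (8.05 ± 0.26), BBC3 (7.25 ± 1.86), BAK1 (6.55 ± 0.73) and BCL2L11 (6.55 ± 2.39), where each overlapped the next. BAD was lowest at 2.53 ± 0.98 CPM per kilobase, below the range of BCL2L11. Exon lengths are unions over all annotated transcripts, so a gene with exon bases outside its main transcript appears lower per kilobase than that transcript would.

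The places of BAD and BCL2L1 in that order depend on how reads were counted. In the joint count used above, a read over genes on both strands is set aside as ambiguous. Each single-strand column assigns it by its direction, which does not show its gene of origin in these unstranded libraries. The 2 columns take opposite directions, so their sum counts such a read for both genes. For BAD the 2 single-strand columns summed to 5793 reads over the 9 libraries against 650 joint reads, a factor of at least 8 that 2.36% of tested genes reached. BCL2L1 had 8334 against 4295 reads, BCL2L11 8028 against 6429 and BAK1 3134 against 2457. These 4 of 10 members exceeded a factor of 1.2, as did 20.0% of all tested genes. For BCL2, PMAIP1 and BID the 2 sums were identical, and MCL1, BAX and BBC3 differed by at most 6 reads, so the BCL2 result does not rest on this choice (-0.33 ± 0.05, adjusted p = 0.000153 in edgeR with the block on the summed columns).

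**Figure D5:**
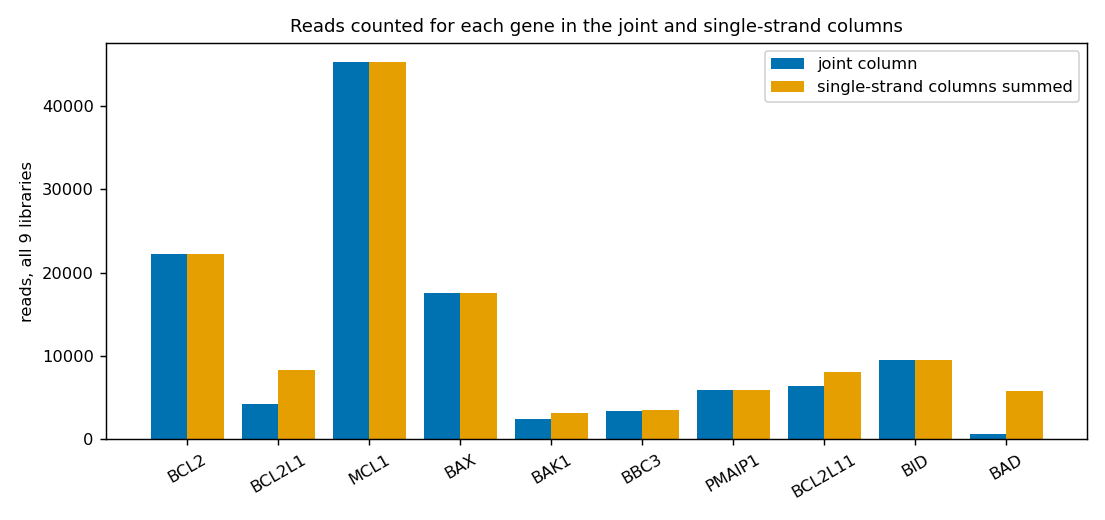
Reads over all 9 libraries (vertical axis from 0) counted for each gene in the joint column (blue) and in the 2 single-strand columns together (orange). The bars are equal or nearly so for 6 genes and differ for BCL2L1, BAK1, BCL2L11 and BAD, where BAD has 650 and 5793 reads.

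GENCODE 29 places another gene across each of these 4. The antisense gene ABALON shares 1424 exon bases with BCL2L1 (43.0% of its exon length), the stretch that also holds the BH3 run printed above, and ABALON had 3 joint reads and 4042 in the strand columns. GPR137, a protein-coding gene on the opposite strand, shares 404 bases with BAD (23.7%) and had 5005 joint reads and 10148 in the strand columns. In these strand-column numbers a read shared with the family member is counted for both genes. MIR4435-2HG shares 727 bases with BCL2L11 (10.9%) and GGNBP1 91 bases with BAK1 (4.11%), again including the BH3 run. The annotation release behind the deposited counts is not given in the sources used here, so overlaps in it may differ.

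On the summed columns, edgeR with the block gave BAD -0.02 ± 0.07 at 20 µM against vehicle (interval -0.17 to 0.14, adjusted p = 0.955), at 36.8, 31.1 and 31.9 CPM in vehicle against 37.3, 28.5 and 32.8 CPM at 20 µM. BAD's level per kilobase in vehicle was then 19.5 ± 1.76, the third of the 10, with an unknown part from GPR137. Summed columns hold every read shared with an opposite-strand gene, so for BAD, BCL2L1, BCL2L11 and BAK1 these levels are upper bounds as far as the overlaps go. Per kilobase in vehicle BCL2L1 stood at 14.1 ± 1.08 on the summed columns, above BCL2 (11.8 ± 1.51) and BID (11.4 ± 1.02), and BBC3 was lowest at 6.40 ± 1.61. BCL2L11 gave -0.22 ± 0.06 (adjusted p = 0.0776), BCL2L1 0.00 ± 0.06 (0.993) and BAK1 0.19 ± 0.09 (0.424). None of these 4 passed by either count.

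The genes around the family were read from 7 lists of 66 genes, of which 61 were tested, and 2 rose and 3 fell at 20 µM against vehicle. Their median log2 fold change was 0.05, against 0.00 over all tested genes, of which 0.848% were called higher and 1.36% lower. At 10 µM against vehicle none of the 61 passed, and at 20 µM against 10 µM 1 rose, where 0.180% of all genes were called higher. Each call named below was lost in the planned fit without the block (adjusted p = 1) and in some blocked fits with a library left out.

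Among 11 further BCL2 family genes, 6 were expressed enough to test. BMF, a BH3-only gene that ties the family to the cytoskeleton, was at 64.6, 28.9 and 26.97 CPM in vehicle, against 51.3, 22.2 and 22.5 CPM at 20 µM. Each replicate number held a lower level at 20 µM, and replicate 1 was high at all doses, as for BCL2L11. BMF fell by 0.32 ± 0.07 on the log2 scale (adjusted p = 0.0133 in edgeR with the block). The call was lost without vehicle replicate 1 (adjusted p = 0.0832), vehicle replicate 2 (0.151), vehicle replicate 3 (0.106), 20 µM replicate 2 (0.0659), all of replicate 1 (0.0778) or all of replicate 3 (0.202). The other 5 tested genes did not pass, among them the pro-survival gene BCL2L2 (-0.10 ± 0.07) and the effector-like BOK (-0.17 ± 0.09). BCL2L10, BIK, HRK, BCL2L14 and BCL2L15 were too low to test.

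Of 6 inhibitor of apoptosis genes, BIRC3, which encodes a ubiquitin ligase of TNF signalling, fell from 35.8 ± 5.79 to 29.3 ± 5.08 CPM (-0.29 ± 0.08, adjusted p = 0.0369). The median of the list was -0.02 and the other 5 did not pass. NAIP lies among near-identical copies, so its counts are uncertain. BIRC3 passed in 6 of 18 blocked fits, and leaving out any vehicle library (adjusted p from 0.132 to 0.244), 10 µM replicate 3 (0.0607), 20 µM replicate 2 (0.0727) or 20 µM replicate 3 (0.317) ended the call. So did DESeq2 (0.129), limma-voom (0.0646) and the summed strand columns (0.0666), each with the block, and leaving out all of replicate 1 (0.0651), 2 (0.0731) or 3 (0.505).

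In the death receptor arm, TNFRSF1A, the main receptor for TNF, rose and the other 9 genes did not pass. It was at 51.9, 57.3 and 69.2 CPM in vehicle, 48.6, 60.7 and 68.5 CPM at 10 µM, and 63.6, 72.2 and 79.7 CPM at 20 µM. The 20 µM library was the highest of its replicate number each time, and the groups overlapped. Its log2 fold change was 0.28 ± 0.06 at 20 µM against vehicle (edgeR with the block, adjusted p = 0.00921) and 0.28 ± 0.06 against 10 µM (0.0212). The first call was lost without vehicle replicate 1 (0.0547), 2 (0.212) or 3 (0.0621) or all of replicate 3 (0.212). The second was lost in 9 of 18 blocked fits: with DESeq2 (0.0766), without vehicle replicate 1 (0.0511) or 3 (0.0625), 10 µM replicate 1 (0.127) or 3 (0.249), 20 µM replicate 2 (0.112) or 3 (0.0960), and all of replicate 1 (0.0857) or 3 (0.743).

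Of 8 transcription factor genes that act on the family, FOXO3, an activator of BCL2L11 and BBC3 in growth factor withdrawal, fell from 149.9 ± 16.7 to 129.5 ± 17.2 CPM (-0.21 ± 0.05, adjusted p = 0.0186 in edgeR with the block). It was lower in 3 of 3 pairs. FOXO3 has a near-identical pseudogene, and reads matching both were not counted. The list's median was -0.16 and the other 7 did not pass. The FOXO3 call was lost without vehicle replicate 1 (0.0996), 2 (0.250) or 3 (0.120), 10 µM replicate 3 (0.0559), 20 µM replicate 3 (0.194) or all of replicate 3 (0.507).

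Of 9 genes of protein turnover and kinases, MDM2, which encodes a ubiquitin ligase, rose by 0.21 ± 0.05 (adjusted p = 0.0306 in edgeR with the block). MDM2 was at 67.1, 130.5 and 160.2 CPM in vehicle, against 70.7, 167 and 181 CPM at 20 µM, so replicate 1 was low, as for BAX, BBC3 and PMAIP1. It passed in 8 of 18 blocked fits. DESeq2 (0.0678), limma-voom (0.0596), and leaving out vehicle replicate 1 (0.0723), 2 (0.487) or 3 (0.136), 10 µM replicate 3 (0.0827), 20 µM replicate 2 (0.227) or 3 (0.218), or all of replicate 2 (0.335) or 3 (0.483) ended the call.

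The downstream lists held no gene that passed. Among 14 apoptosome and caspase genes the median log2 fold change was 0.10 at 20 µM against vehicle. Among 8 outer membrane partners the median was 0.09 and the smallest p that of the channel gene VDAC3 (0.14 ± 0.06, adjusted p = 0.270 in edgeR with the block), a gene with processed pseudogenes that share its sequence. The sympathetic and mesenchymal marker sums given beside BCL2 apply to all these comparisons, and their part in them was not tested.

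Over the 9 libraries, BCL2L11, BAD and BAX varied most among the members in the joint count (SD of log2 CPM 0.37, 0.36 and 0.34). The place of BAD rests on few reads, and 42.7% of its variance lay with neither replicate number nor dose. On summed strand columns it ran only from 28.5 to 37.3 CPM, so its likenesses below hold for the joint count alone. Among 12291 other protein-coding genes averaging at least 2 CPM, those with the most similar pattern were found by the root mean square difference of centred log2 CPM. For BAX they were GADD45A (0.04) and C9orf64 (0.05), where the median gene differed by 0.35. For BCL2L11 they were CD24 (0.09) and CBX2 (0.09), with a median of 0.37, and for BAD they were ACAP1 (0.11) and NREP (0.13), with a median of 0.36. These likenesses are descriptions over libraries that share replicate numbers.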

How the data were processed

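The authors deposited raw counts per gene for each library, from STAR, per the file headers and the submitters' processing notes, which also name FastQC, cutadapt, edgeR and GRCh38; the sources used here give no versions. Of the reads, 9.51% to 10.1% were ambiguous between genes, and these stayed out of library sizes with the unmapped, multimapping and no-feature reads. Strand ratios of 0.981 to 0.993 show that strand is not marked, so sense and antisense reads over a gene cannot be told apart. The authors' normalized table was not used. Symbols were matched for 61474 of 61487 identifiers, 58312 of them in GENCODE 29.

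Here joint counts were filtered with filterByExpr, scaled by TMM and tested in 1 fit of 9 libraries with edgeR 4.0.16 (quasi-likelihood, robust; R 4.3.3). Alternatives used DESeq2 1.42.0, limma 3.58.1, RLE factors, no filter, summed strand columns and libraries left out. The block was planned as an alternative. Replicate numbers come from the sample titles, and all 9 same-numbered pairs of libraries had correlated deviations (r 0.574 to 0.785, limit 0.1; different numbers -0.642 to 0.206). Residual degrees of freedom were 6 without and 4 with the block. Intervals and p-values with the block used 25.6 total degrees of freedom for a member, most of them borrowed from other genes. Libraries within a group differed beyond counting noise (lowest chi-square 8.62 per degree of freedom). Scripts were tested on simulated data.

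The members and lists were chosen with earlier results of these data known. All members are named, pathway genes that passed with the block, the smallest p of a list where none passed, and the 2 genes most like each of the 3 most variable members. One gene that this rule names is not reported here. BCL2L2, BOK and NAIP are named beyond that rule and were chosen after their values were seen.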

Additional observations from a re-analysis of the deposited data

How the results depend on the processing

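Without the replicate block edgeR called 0 genes and 0 members in each dose comparison. With the block, genes called at 20 µM against vehicle, 10 µM against vehicle and 20 µM against 10 µM numbered 393, 6 and 79 in edgeR, 257, 49 and 90 in DESeq2, 330, 4 and 68 in limma-voom, 399, 6 and 79 with RLE factors, 560, 23 and 188 with no filter, and 407, 7 and 89 on summed strand columns. In each of these 6 settings 1, 0 and 1 members were called, BCL2 both times. Without the block, DESeq2 called 10 genes and edgeR with no filter 6 at 20 µM against vehicle, and no member. With libraries left out, genes called ranged over 0 to 729, 0 to 16 and 0 to 301 and members over 0 to 1, 0 and 0 to 1. At 20 µM against vehicle with the block, leaving out vehicle replicate 1, 2 or 3 gave 204, 96 or 169 genes, 10 µM replicate 2 or 3 gave 729 or 241, 20 µM replicate 1, 2 or 3 gave 619, 249 or 149, and all of replicate 3 gave 48. The replicate-number test called 6100 to 8053 genes and 6 to 9 members.

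On summed strand columns BAD turned to -0.027 (-0.026 with the block) at 10 µM against vehicle and to 0.011 (0.0077 with the block) at 20 µM against 10 µM. With libraries left out and the block kept, the range of log2 fold changes crossed 0 at 20 µM against vehicle only for BAD. It did so only for BCL2L11 and BAD at 10 µM against vehicle, and only for BCL2L1, BBC3 and BAD at 20 µM against 10 µM. Pooled over fits with and without the block, the ranges that crossed 0 were as follows. At 20 µM against vehicle they were -0.034 to 0.118 for MCL1, -0.012 to 0.348 for BAX, -0.289 to 0.092 for BBC3, -0.031 to 0.298 for PMAIP1, -0.427 to 0.144 for BCL2L11, -0.419 to 0.173 for BAD, -0.845 to 0.195 for BMF and -0.058 to 0.545 for MDM2. At 10 µM against vehicle they were -0.101 to 0.022 for MCL1, -0.067 to 0.316 for BAX, -0.0080 to 0.177 for BAK1, -0.273 to 0.094 for BBC3, -0.202 to 0.109 for PMAIP1, -0.302 to 0.304 for BCL2L11 and -0.207 to 0.442 for BAD. At 20 µM against 10 µM they were -0.102 to 0.042 for BCL2L1, -0.153 to 0.240 for BAX, -0.034 to 0.306 for BAK1, -0.187 to 0.169 for BBC3, -0.390 to 0.105 for BCL2L11, -0.0016 to 0.155 for BID and -0.553 to 0.018 for BAD. The causes were not tested. The mean log2 BAX to BCL2 ratio difference stayed at 0.420 to 0.530 at 20 µM against vehicle with any replicate number left out, and ran over 0.106 to 0.252 at 10 µM against vehicle and 0.270 to 0.314 at 20 µM against 10 µM. With the block and libraries left out, the uncalled members with an unadjusted p below 0.05 at 20 µM against vehicle ran over 0.098 to 0.202 (BAX), 0.145 to 0.372 (BAK1), -0.252 to -0.085 (BCL2L11) and 0.124 to 0.206 (BID). BAD had 54 to 107 joint reads per library, and its SE at 20 µM against vehicle was 0.21 in the joint count and 0.07 on summed strand columns.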
